A study of Mus musculus with 6 samples.

Results

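Blood myeloid cells of aged mice were compared with those of young mice at steady state. The members are all cells of the 2 blood libraries that had at least 500 UMIs (unique molecular identifiers, each standing for 1 captured RNA molecule) and at most 10% mitochondrial UMIs. These are 7371 of the 28055 cell barcodes of the series, with 2029 from the young and 5342 from the aged library. The series also holds 4 bone marrow libraries, which serve below only for side-by-side values. Both blood groups were untreated wild-type mice. Circulating cells carrying CD11b, an integrin of myeloid cells and of some lymphocytes, had been sorted into a fraction with and a fraction without Ly6G, a surface protein of mouse neutrophils. Young and aged cells had the same sort, and the proportion in which the fractions were combined, the ages in months and the number of mice per library are not given in the labels. Each group is 1 library, so no difference below has a replicate check, no test was made, and the intervals cover counting error only. Y-linked transcripts were present and Xist had 0 UMIs in both libraries.

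Neutrophils are short-lived phagocytes that leave the marrow mature, kill microbes with granule proteins and an oxidative burst, and make up the bulk of CD11b+ blood cells. Classical monocytes enter inflamed tissue and can become macrophages or antigen-presenting cells, while non-classical monocytes patrol the vessel wall. All of them respond to type I interferon through a complex that holds STAT2 and IRF9, binds a DNA element built on repeats of GAAA and turns on interferon-stimulated genes, many of which block virus replication.

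Interferon-stimulated genes recur in the comparisons that follow, so the element is shown first in promoters of those at least 2-fold lower in aged neutrophils. The search was for GAAANNGAAA on either strand (TTTCNNTTTC on the other) within 250 bases upstream of RefSeq start sites (build GRCm38.p6). Of the 12 such genes 7 are in the promoter table, and 6 of those 7 held a match. Matches stood in promoters of 4 of 13 interferon-stimulated genes that were less than 2-fold lower, in 137 of 3427 genes measured in neutrophils (4%) and in 936 of all 27025 genes (3.46%). Oasl2 held no match. Each sequence is read 5′ to 3′ on the strand of its gene, with the matching bases in capitals. Ifit1 stands at chr19:34640770-34640828 and Ifit3b at chr19:34607754-34607827, both on the plus strand, Isg15 at chr4:156200860-156200911 and Oas3 at chr5:120777710-120777749, both on the minus strand. The 3 matches of Isg15 overlap, and Ifit3, a close copy of Ifit3b, holds the letters of the Ifit3b window unchanged.
Ifit1: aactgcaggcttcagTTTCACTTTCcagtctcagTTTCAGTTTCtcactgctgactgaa
Ifit3b: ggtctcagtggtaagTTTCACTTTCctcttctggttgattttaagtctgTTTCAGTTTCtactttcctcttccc
Isg15: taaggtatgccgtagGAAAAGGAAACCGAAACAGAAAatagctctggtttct
Oas3: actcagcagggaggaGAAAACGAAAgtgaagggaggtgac
A match describes letters only, and binding was not measured.

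The first comparison asked which cells each library held. A cell was placed in a gate by a score over markers of its lineage, and gates are named for the cells their markers describe. Neutrophils (S100a8, S100a9, Csf3r, Retnlg and other markers) were 78.2% of young (exact binomial 95% interval 76.4% to 80.0%) and 61.5% of aged cells (60.1% to 62.8%). Classical monocytes (Ly6c2, Ccr2, F13a1) were 5.17% (4.25% to 6.23%) and 11.9% (11% to 12.8%). Non-classical monocytes (Ace, Treml4, Cd300e) were 3.06% (2.35% to 3.90%) and 11.8% (10.9% to 12.7%). The 3 intervals do not overlap between the libraries, but the sort and the mixing of its fractions can set these shares. Within monocytes alone, which fall in the fraction without Ly6G, the non-classical share was 34.6% of 179 young (27.7% to 42.1%) and 48.2% of 1308 aged cells (45.4% to 50.9%).

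**Figure D1:**
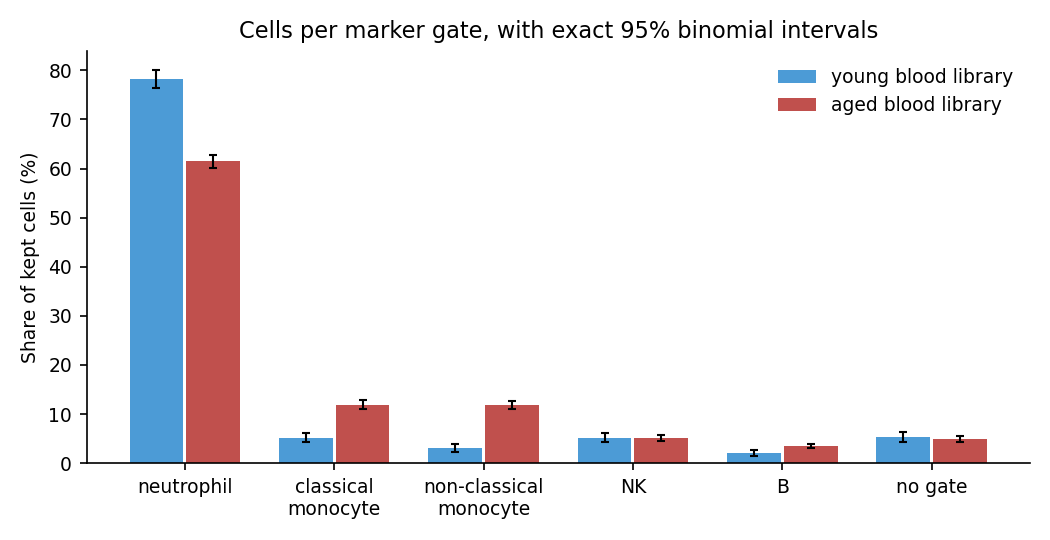
Bars give the share of kept cells (percent) in each marker gate for the young (blue) and aged (red) blood library, with exact 95% binomial intervals as error bars. Neutrophils stand at 78.2% in young and 61.5% in aged blood, and both monocyte gates are higher in the aged library.

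Lymphocytes were also present, so the sorted cells were not all myeloid. NK cells, cytotoxic lymphocytes that carry CD11b, were 5.17% of young (4.25% to 6.23%) and 5.04% of aged cells (4.46% to 5.66%), intervals that overlap. B cells were 1.97% (1.41% to 2.67%) and 3.46% (2.99% to 3.99%). Basophils and conventional dendritic cells were seen in the aged library alone, as 16 (0.3%, 0.171% to 0.486%) and 7 cells (0.131%, 0.053% to 0.27%). The exact interval for 0 of 2029 young cells reaches 0.182% and overlaps both. In all, 5.32% of young and 4.83% of aged cells fell in no gate, and 217 gated cells lay within 0.05 score units of the gate's limit. The median neutrophil held 3963 UMIs in the young and 4042 in the aged library, and the median classical monocyte 13348 and 12592.5 UMIs. The young cells gave 10138686 UMIs in all and the aged cells 34948850. Among kept cells 7 barcode sequences occurred in both libraries, and 74 young cells had fewer UMIs than the poorest aged cell.

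The second comparison summed UMIs over all cells of a library and expressed each gene as CPM, its UMI count scaled to a common library total. Values below are the young CPM, the aged CPM and the log2 ratio of aged over young. Of 5276 genes measured (mean CPM of at least 20 and at least 50 UMIs over both libraries), 127 (2.41%) were at least 2-fold higher and 116 (2.2%) at least 2-fold lower in aged blood. The split moved with the scaling, to 95 higher and 154 lower under median of ratios scaling, 256 and 74 with cells thinned to 1000 UMIs, and 192 and 64 with the mean of per-cell CPM. Among the highest was Apoe, a lipid carrier, at 725 and 2005 CPM (log2 ratio 1.47, interval 1.43 to 1.5). The transcription factor Tcf7l2 (1.86), the tubulin Tubb6 (1.83) and Pltp, a phospholipid transfer protein (1.76), were higher as well. Among the lowest were Steap4, a metalloreductase, at 63.2 and 12.8 CPM (-2.30, -2.48 to -2.13), Egr1, an immediate early transcription factor (-2.21), Lrg1, a secreted leucine-rich glycoprotein, at 444 and 125 CPM (-1.82), and Ifitm1, an interferon-inducible membrane protein, at 1103 and 340 CPM (-1.70).

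These sums mix lineages. When each gate of the aged library was given the weight it had in the young library, 17 genes were at least 2-fold higher and 47 at least 2-fold lower, of which 8 and 39 were also past 2-fold in the plain sums. Apoe then stood at 0.62 and Pltp at 0.69, both below 2-fold, whereas Gss, the glutathione synthetase (1.57), Steap4 (-1.65), Egr1 (-1.86) and Lrg1 (-1.18) stayed past it. The comparisons that follow are made within gates, which still hold some transcripts of other lineages, as given below.

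**Figure D2:**
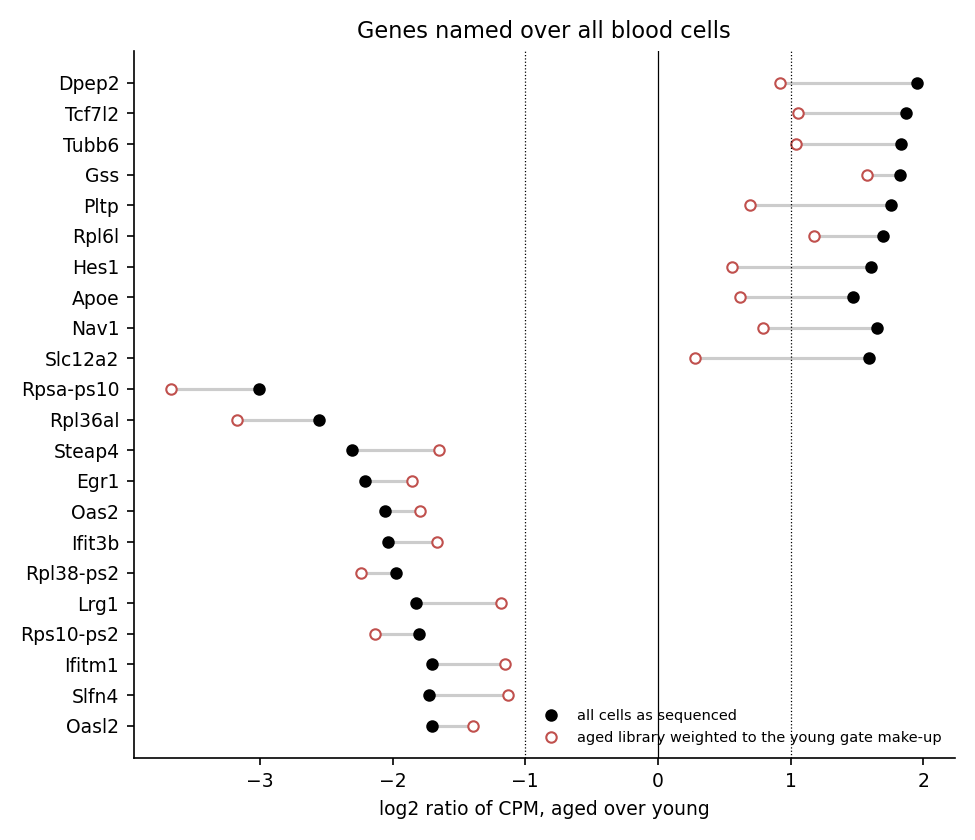
For genes named over all blood cells, filled points give the log2 ratio of CPM (aged over young) as sequenced and open red points the ratio with the aged library weighted to the young gate make-up. The higher genes shown move toward 0, Apoe from 1.47 to 0.62 and Slc12a2 from 1.59 to 0.28, and dotted lines mark 2-fold.

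In neutrophils (1587 young and 3283 aged cells), 25 of 4364 genes measured (0.573%) were at least 2-fold higher and 38 (0.871%) at least 2-fold lower in the aged library. After scaling, the median log2 ratio over all measured genes was 0.01. Interferon-stimulated genes stood on the lower side: 28 of the 40 listed were measured, 12 of them (against 0.871% of all genes) were at least 2-fold lower, none was higher, and their median log2 ratio was -0.93. The counting interval lay below 0 for 27 of the 28, the exception being Ifi35 (-0.14, -0.39 to 0.11). The list was chosen with earlier results of these data known.

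The sensors and effectors of the interferon response were lower alike. Oas2, an RNA sensor that feeds RNase L, had 57.1 CPM in young and 15.5 in aged neutrophils (log2 ratio -1.88, -2.13 to -1.63). Its relatives Oas3 (132 and 52.3 CPM, -1.34) and Oasl2 (295 and 108 CPM, -1.44) were also past 2-fold. Among proteins that bind viral RNA, Ifit1 had 66.9 and 23.3 CPM (-1.52) and Ifit3b 51.2 and 15.2 CPM (-1.75). Zbp1, a sensor of Z-form nucleic acid, had 32.0 and 11.5 CPM (-1.48). The ubiquitin-like modifier Isg15, with 3 motif matches above, had 280 and 129 CPM (-1.12, -1.21 to -1.02). Among the regulators, Irf7 (-0.95), Stat2 (-0.92) and Irf9 (-0.82) were lower by less than 2-fold. Ifi27l2a, an interferon-inducible mitochondrial protein, had 1018 and 471 CPM (-1.11, -1.16 to -1.06), and Ifitm3, a membrane protein that restricts virus entry, 1171 and 734 CPM (-0.67).

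The lower sums were also seen cell by cell. With each cell thinned to 1000 UMIs (1545 of 1587 young and all 3283 aged neutrophils are deep enough), the median young neutrophil held 4 UMIs of the interferon list and the median aged one 2. At the 90th percentile the counts were 14 and 7. Cells with at least 10 such UMIs were 17.0% of young (exact 95% interval 15.2% to 19.0%) and 5.64% of aged neutrophils (4.87% to 6.48%). An Oasl2 UMI was found in 50.3% of young and 26.6% of aged neutrophils (thinned, 23.2% and 9.26%), against 1.90% and 2.97% of NK cells, which had median depths of 5445 and 5598 UMIs.

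**Figure D3:**
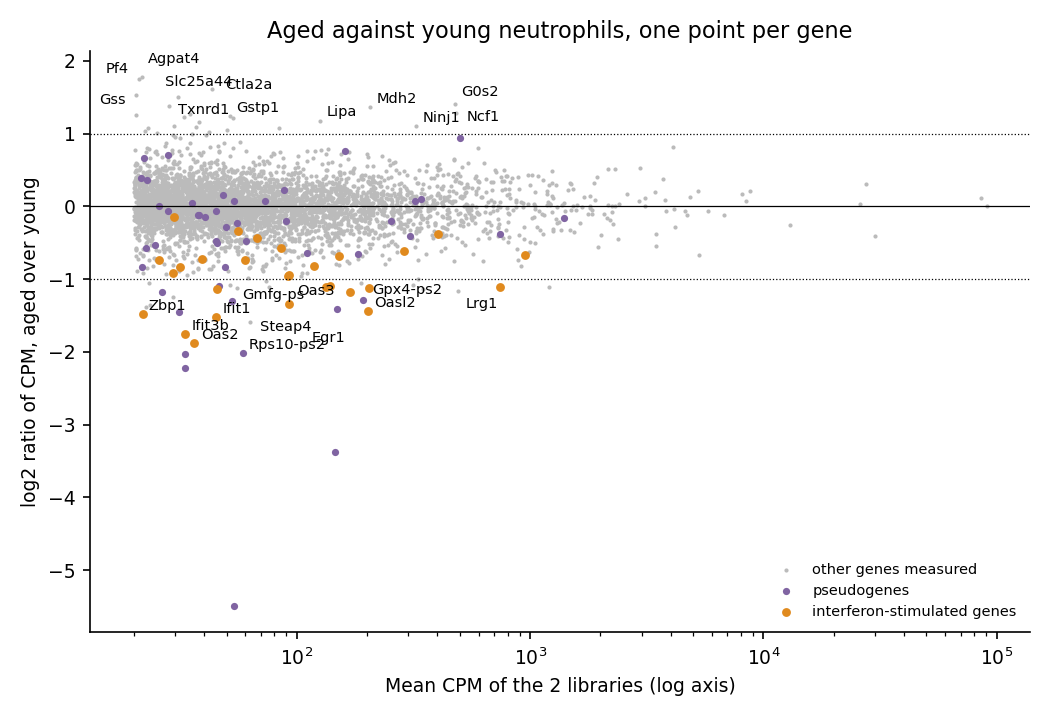
Each point is a gene measured in the neutrophil gate, with its mean CPM over the 2 libraries on a log axis and its log2 ratio of CPM (aged over young). Interferon-stimulated genes (orange) lie below 0, with 12 of 28 under the dotted line at 2-fold, and several pseudogenes (purple) lie lower still.

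Further genes not on that list were lower in aged neutrophils. Egr1 had 171 CPM in young and 45.3 in aged neutrophils (-1.92, -2.06 to -1.78), and its UMIs were seen in 28.2% and 11% of cells (thinned, 13.7% and 3.93%; NK cells 8.57% and 2.23%). The other 17 immediate early genes measured were all within 2-fold, with a median of -0.22 for the list of 18. Steap4 had 94.1 and 31.2 CPM (-1.59, -1.77 to -1.41). Lrg1 had 674 and 301 CPM (-1.16, -1.22 to -1.10), and Ifitm1 had 1642 and 763 CPM (-1.11).

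The higher side in aged neutrophils held enzymes and regulators of several kinds. G0s2, an inhibitor of the lipase that empties lipid droplets (chromosome 1, 193272161 to 193273217, GRCm38), had 260 CPM in young and 691 CPM in aged neutrophils (1.41, 1.33 to 1.48). G0s2 UMIs were found in 38.4% of young and 71.2% of aged neutrophils (thinned, 17.8% and 39.4%), against 21% and 19.0% of NK cells. Of 15 genes measured in the lipid droplet and lipid handling list, G0s2 alone was past 2-fold, and its target Pnpla2 stood at 0.07. Ncf1, the p47 organising subunit of the NADPH oxidase (chromosome 5, 134220053 to 134229625), had 281 and 684 CPM (1.28, 1.21 to 1.36). The catalytic subunit Cybb (0.74) and Ncf4 (0.41) were higher by less than 2-fold, while Rac2 (0.03) and Rac1 (0.02) were close to 0. Mdh2, the mitochondrial malate dehydrogenase, had 115 and 296 CPM (1.37). Gss (1.52) and Txnrd1, thioredoxin reductase (1.38), both of thiol metabolism, and Lipa, the lysosomal acid lipase (1.18), were higher. Ninj1, which ruptures the membrane of dying cells, had 206 and 444 CPM (1.11, 1.02 to 1.19) and was also higher in classical monocytes (1.25).

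Pf4, a platelet chemokine, had 9.64 and 32.4 CPM in the neutrophil gate (1.75). The 10 cells richest in it held 58.1% of its young UMIs, and the 5 platelet markers, Pf4 among them, had summed levels of 18 and 55.4 CPM there. Pf4 itself gave 62 of the 116 young and 446 of the 763 aged UMIs of that sum. Platelet markers were higher in aged cells of the classical (2.12 and 18.1 CPM), non-classical (1.5 and 22.6 CPM) and NK gates (0 and 52.9 CPM) too. The part of platelet RNA in the Pf4 value was not tested.

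Granule and trafficking genes, which follow neutrophil maturation, were within 2-fold in aged neutrophils. Of 9 specific granule genes measured none was past 2-fold (median -0.11), from Ngp at -0.72 (31.3 and 19.0 CPM) to the granule regulator Cebpe at 0.95. The 11 gelatinase granule and secretory vesicle genes, some of them markers of the gate, had a median of 0.02, with the inhibitory receptor Cd33 lowest at -0.74. None of 20 maturation, retention and release receptors was past 2-fold: they ranged from -0.56 to 0.53 with a median of -0.13, and 12 intervals lay below 0 and 5 above it. The chemokine receptors Cxcr2 (-0.10) and Cxcr4 (-0.13) were among them. Precursor markers had summed levels of 34.2 and 39.5 CPM. The 38 cytosolic ribosomal protein genes ranged from 0.12 to 0.80, with a median of 0.43 beside 0.01 for all genes measured. The median of this list was above 0 in the other gates too, at 0.18 in classical monocytes, 0.08 in non-classical monocytes and 0.24 in NK cells. Rps10-ps2, a ribosomal protein pseudogene, stood at -2.01 in aged neutrophils and was lower in every gate, as given below. Whether both libraries were counted alike is not stated, and the part of counting in the ribosomal values was not tested.

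The same neutrophil gate was applied to the marrow libraries, where fewer of these genes reached the level needed. At steady state (899 young and 796 aged cells) 7 of the 8 measured among the 12 named higher genes were above 0, with G0s2 at 0.42, Mdh2 at 0.17 and Ncf1 at 0.02. In marrow after stroke (383 and 484 cells) 3 of 5 were above 0, with G0s2 at 0.32 and Ncf1 at -0.04. Interferon-stimulated genes were below 0 for 8 of 10 and 6 of 7 measured, with Ifi27l2a at -1.07 and -1.20. Lrg1 had the other sign there, at 0.16 and 0.25.

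In classical monocytes (105 young and 634 aged cells), 50 of 5363 genes measured (0.932%) were at least 2-fold higher and 72 (1.34%) at least 2-fold lower in the aged library. MHC class II genes, whose products display peptides to helper T cells, were higher: 4 of 9 measured were past 2-fold and the list's median was 0.89, beside 0.01 for all genes. H2-Eb1, a beta chain, had 140 and 459 CPM (1.71, 1.51 to 1.93). The chains H2-Ab1 (325 and 815 CPM, 1.33) and H2-Aa (338 and 834 CPM, 1.31) and the invariant chain Cd74 (1285 and 2644 CPM, 1.04) were higher too. Their transactivator Ciita (0.89) and the peptide loader H2-DMb1 (0.76) were below 2-fold.

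Class II transcripts were unevenly spread over these cells. Cd74 had a UMI in 68.6% of young and 78.4% of aged classical monocytes (thinned, 24.0% and 38.6%). A UMI of H2-Ab1 was found in 20% of young and 41.3% of aged classical monocytes (thinned, 8.65% and 21.6%), against 3.81% and 8.18% of NK cells. Cells with at least 10 thinned UMIs of the 3 chains and Cd74 were 8.65% of young (4.03% to 15.8%) and 13.7% of aged cells (11.1% to 16.6%), intervals that overlap. The 10 richest of the 105 young cells held 96.1% of the young H2-Ab1 UMIs, and the 10 richest of the 634 aged cells 24.1% of the aged ones. Conventional dendritic cell markers had summed levels of 58.7 CPM in young and 82.2 CPM in aged classical monocytes, and their part in the class II values was not tested.

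Further genes higher in aged classical monocytes were Dhrs3, a retinaldehyde reductase (14.2 and 68.8 CPM, 2.28), Cgnl1, a junction protein (2.83 and 61.0 CPM, 4.43, with 4 young UMIs), Pla2g7, a phospholipase that degrades platelet-activating factor (222 and 471 CPM, 1.09), and Ptafr, the receptor of that lipid (51.7 and 117 CPM, 1.18). Klf9, a glucocorticoid-responsive transcription factor, was at 1.57. Interferon-stimulated genes were lower here as well, with 5 of 33 past 2-fold, 27 intervals below 0 and a median of -0.52. Ifi206, of the interferon-inducible HIN-200 family, had 78.6 and 27.8 CPM (-1.5), and it shares 17.0% of its 3′ sequence words with other genes. Haemoglobin genes led the higher side (Hbb-bs, 218 and 2144 CPM, 3.30), but the 10 richest aged cells held 94.6% of those UMIs.

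In non-classical monocytes (62 young and 630 aged cells), 61 of 5644 genes measured (1.08%) were at least 2-fold higher and 103 (1.82%) at least 2-fold lower in the aged library. Interferon-stimulated genes were lower again, 10 of 26 past 2-fold with a median of -0.83. Rtp4, an interferon-inducible inhibitor of virus replication, had 67.3 and 16.8 CPM (-2.0, -2.52 to -1.47). Oasl2 (-1.79), the guanylate-binding protein Gbp2 (-1.59) and Oas3 (-1.55) were also past 2-fold. Of 18 genes of the class I presentation route measured, 2 were past 2-fold lower, the regulator Nlrc5 (52.4 and 17.3 CPM, -1.60) and the peptide transporter Tap1 (238 and 97.4 CPM, -1.29).

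**Figure D4:**
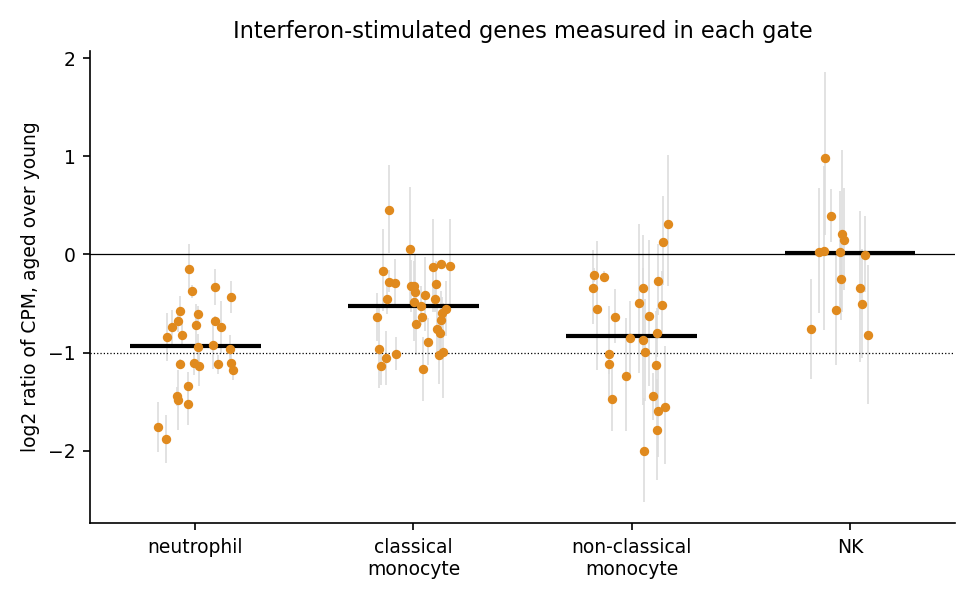
Each point is an interferon-stimulated gene measured in that gate, placed by its log2 ratio of CPM (aged over young) with its 95% counting interval in grey, and black bars give the medians. The medians are -0.93 in neutrophils, -0.52 in classical monocytes, -0.83 in non-classical monocytes and 0.01 in NK cells.

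MHC class II genes had the opposite sign in the non-classical gate, with a median of -0.87 and 3 of 9 past 2-fold. Ciita had 38.9 and 14.0 CPM (-1.48), Cd74 3062 and 1524 CPM (-1.01, -1.08 to -0.94) and H2-Eb1 374 and 187 CPM (-1.0). This rests on few young cells: the 10 of 62 richest in H2-Ab1 held 91.1% of its young UMIs. By cells, H2-Ab1 was found in 40.3% of young and 34.1% of aged cells (thinned, 21% and 10.3%). No test of the difference between the gates could be made with 1 library a side.

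**Figure D5:**
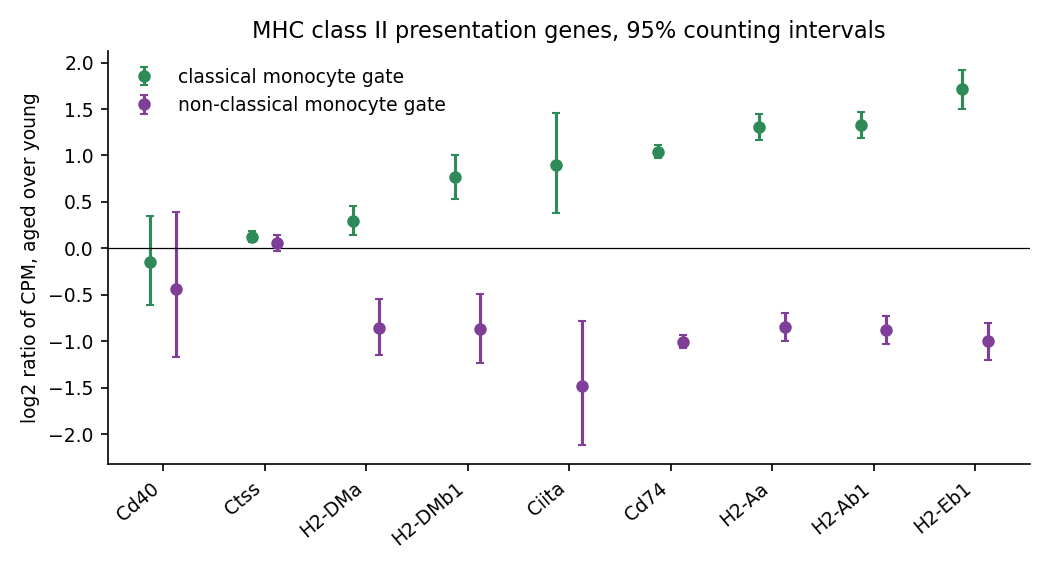
Log2 ratios of CPM (aged over young) with 95% counting intervals for 9 MHC class II presentation genes in classical (green) and non-classical monocytes (purple). H2-Eb1 lies at 1.71 in classical and -1.0 in non-classical monocytes.

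Genes higher in aged non-classical monocytes were led, after haemoglobin genes, by Cd81, a tetraspanin, at 35.9 and 147 CPM (2.03, 1.45 to 2.68). The zinc finger protein Hivep2 (1.92), the corepressor Nrip1 (1.69), Gss (1.72) and Gstm1, a glutathione transferase (1.53), followed. Young UMIs were few, at 24 for Cd81, 15 for Hivep2, 16 for Gss and 27 for Gstm1. The 10 richest young cells held 87.5%, 86.7%, 100% and 59.3% of them, in that order. Nrip1 rested on 21 young UMIs, 90.5% of them in 10 cells, and had the opposite sign with cells thinned to 1000 UMIs (-0.18). Gss was past 2-fold in the other 2 myeloid gates as well, at 1.52 in neutrophils and 1.44 in classical monocytes. In NK cells it stood at 1.68, though under the level for measured genes, so it was not shown to be particular to myeloid cells. G0s2 was higher as in neutrophils, at 64.3 and 145 CPM (1.18). The cytotoxic genes Gzma (292 and 38.8 CPM, -2.91) and Ccl5 (335 and 61.9 CPM, -2.44) were lower, but the 10 cells richest in NK markers held 98.7% of the young NK marker UMIs of the gate. With a stricter gate the values were 1.45 and 1.62, the opposite sign.

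In NK cells (105 young and 269 aged cells), 61 of 5499 genes measured (1.11%) were at least 2-fold higher and 57 (1.04%) at least 2-fold lower. Interferon-stimulated genes did not stand apart: none of 14 measured was past 2-fold and the median was 0.01. Over the 11 of them measured in every gate the medians were -0.67 in neutrophils, -0.52 in classical monocytes, -0.51 in non-classical monocytes and 0.02 in NK cells. Of 15 inflammatory cytokine and NF-kB target genes measured, 2 were past 2-fold lower and 1 higher. The chemokines Ccl4 (454 and 168 CPM, -1.43, -1.68 to -1.18) and Ccl3 (167 and 69.9 CPM, -1.26) were lower, and the chemokine Ccl6 was higher (23.4 and 69.9 CPM, 1.58). The 10 richest of 105 young cells held 71.0% of the young Ccl4 UMIs. The cytokine Ifng stood at -1.28, whereas Gzmb, a stored cytotoxic protease, was near 0 (-0.07). S1pr1, which guides lymphocytes out of tissues, was at 36.7 and 98.8 CPM (1.43), and Hes1, a Notch target, at 1.89. Hes1 rested on 10 young UMIs, and the 10 richest of 269 aged cells held 46.9% of its aged UMIs.

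A set of transcripts was lower in the aged library in every gate. Of 3122 genes measured in all 4 gates, 9 were at least 2-fold lower in each of them and 0 were higher in each, and 8 of the 9 were annotated pseudogenes. Gm13604, a processed pseudogene (chromosome 2, 67707290 to 67707771) singled out after its values were seen, was lowest of the 9, from -5.49 in neutrophils to -7.40 in classical monocytes. Between 23.1% (NK cells) and 36.3% (non-classical monocytes) of measured pseudogenes were at least 2-fold lower in a gate, against 0.563% to 1.23% of protein-coding genes. Rps10-ps2 stood between -2.01 and -2.28 in the 4 gates, and shares 69.5% of its 3′ sequence words with other genes. Rpl36al, a protein-coding gene, shares 75.8% and stood between -2.24 and -3.71. In the marrow neutrophil gate Rps10-ps2 was under the level for measured genes, and Gpx4-ps2, another of the 9, stood at 0.22 after stroke (45.1 and 52.6 CPM). The labels and processing notes do not say whether both blood libraries were counted alike, and values of such genes are uncertain. With protein-coding genes that share under 10% of those words, 21 genes were higher and 23 lower in neutrophils, 37 and 17 in classical monocytes, 49 and 51 in non-classical monocytes, and 47 and 25 in NK cells.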

How the data were processed

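The authors deposited 1 table of UMI counts per gene and cell for 6 libraries (23016 genes, 28055 barcodes), made per the labels with droplet 3′ chemistry. The submitters' processing notes name featureCounts 1.6.4, STAR 2.5.3a, Cell Ranger 3.0.2, Subread and UMI-tools, beside the builds mm10 and GRCm38, without saying which step used which or whether both blood libraries were counted alike.

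Blood cells with at least 500 UMIs and at most 10% mitochondrial UMIs were kept, which left out 207 young and 0 aged cells. A lineage score (mean scaled marker level) of at least 0.4, with a margin of 0.2 over other lineages, placed a cell in a gate, and a difference of 0.1 split monocytes. These limits were set after the score distributions were seen. Doublets were kept: a simulated-doublet score above 0.25 marked 2.37% of young and 3.05% of aged cells, which were left out as an alternative. That score found 30.9% of simulated doublets in the young and 66.6% in the aged library, so the alternative can leave many doublets in. UMIs were summed per gate and scaled to CPM, and the log2 ratio of aged over young was given an exact conditional 95% counting interval. With 1 library per group, no test was run. The limit of 2-fold was applied to genes with a mean CPM of at least 20 and at least 50 UMIs. Named were the 12 highest and 12 lowest genes (6 and 6 in NK cells) by the interval bound nearest 0, without gate markers, mitochondrial genes and Gm or Rik models, plus members of the gene lists. Some genes that meet this rule are not reported here. The members and lists were chosen with earlier results of these data known. Shared 3′ sequence is the percentage of 60-base words in the last 400 bases of a gene's transcripts found in other genes of GENCODE, which held 22772 of the 23016 genes. Promoters were RefSeq's. Python 3.11.15, numpy 2.4.6, pandas 2.3.3, scipy 1.17.1, scikit-learn 1.9.0 and matplotlib 3.10.9 were used, and the ratio and interval code was tested on simulated data. Alternatives covered scaling, filters, thinning, doublets, gate strictness, weighting of cells, gate make-up and shared sequence.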

Additional observations from a re-analysis of the deposited data

Results flagged for a closer look

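The median log2 ratio (aged over young) of MHC class II presentation genes was 0.89 in classical and -0.87 in non-classical monocytes, opposite signs in the 2 monocyte gates. The difference between the gates was not tested, since each group is 1 library. The 10 cells richest in H2-Ab1 held 96.1% of its young UMIs in classical and 91.1% in non-classical monocytes.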

How the results depend on the processing

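No paired analysis was possible because each group holds 1 library. The number of genes past 2-fold in either direction (243 over all cells, 63 in neutrophils, 122 in classical monocytes, 164 in non-classical monocytes, 118 in NK cells) became, in that order, 5442, 5251, 6046, 6856 and 5333 with no filter on low counts, and 147, 39, 51, 53 and 25 when the counting interval had to lie wholly past 2-fold. Thinning to 1000 UMIs per cell gave 1018, 1508 and 1034 in classical monocytes, non-classical monocytes and NK cells, and protein-coding genes without shared 3′ sequence 54, 100 and 72. The last setting, the weighting to the young make-up (64 over all cells) and the removal of the cells richest in a list were chosen after seeing the data. A stricter gate gave neutrophil shares of 73.4% in young and 58.0% in aged blood.

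Over all cells, the list medians under median of ratios scaling were 0.99 for MHC class II, 0.64 for ribosomal protein, -0.71 for immediate early and 0.21 for NADPH oxidase genes. With thinning, the first 3 were 1.24, 0.77 and -0.44, and with the mean of per-cell CPM all 4 were 1.22, 0.79, -0.49 and 0.25. The MHC class II median was 1.32 over all cells without the 10 richest cells. In classical monocytes it was 1.13 thinned and 2.45 without the 10 richest cells, in non-classical monocytes -1.15 with a stricter gate and -0.15 without the 10 richest cells, and in NK cells 1.34 thinned. Immediate early genes in non-classical monocytes stood at 0.028 thinned and -0.085 without the 10 richest cells, and ribosomal protein genes in NK cells at 0.37 without them. Signs changed in non-classical monocytes for Gzma (1.45) and Ccl5 (1.62) with a stricter gate, for Ccl5 (2.52) without the 10 richest cells and for Nrip1 (-0.18) when thinned. The cause was not tested. Leaving out the 10 richest cells takes a larger share of the young than of the aged cells in each gate and picks them by the genes compared, which raises the ratio by construction, so those values say nothing on stability. Over all settings, that one included, 214 recomputed list medians moved by no more than the typical counting error of their genes. For named genes 702 values stayed within theirs and 116 moved further with the same sign. Of these, 25 medians and 59 and 37 named-gene values came from leaving out the 10 richest cells. A further 30 of the unmoved medians and 108 of the unmoved named-gene values came from a limit of 5% mitochondrial UMIs. No kept blood cell exceeded that limit (highest 4.89%), so those values could not move and say nothing on stability. The 62 young non-classical monocytes and 105 young classical monocytes limit the precision of those gates.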

Other observations

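B cells, lymphocytes that make antibodies, were 40 in the young and 185 in the aged library, too few young cells for a comparison across genes. Lgals1, the lectin galectin-1, had 2 young and 275 aged UMIs (8.54 and 231 CPM, log2 ratio 4.76, interval 2.89 to 7.81). Its UMIs were found in 5% of young and 38.9% of aged B cells. The integrin chain Itgb1 (3.62, 2.24 to 5.50), the scaffold protein Ahnak (2.57, 1.89 to 3.33) and the transcription factor Zbtb32 (3.07, 1.17 to 6.13) were also higher. They rested on 4, 18 and 2 young UMIs. Ctla2a, Ighg2b (a switched antibody constant region) and Fcrl5, an Fc receptor-like protein, had 0 young UMIs. Set against 3 counts in the young gate, their aged levels were 5.97-fold, 4.66-fold and 3.87-fold higher, in that order. Those folds are not lower limits, since the counting intervals reach down to log2 ratios of 2.25, 1.88 and 1.61. Cr2, a complement receptor, had 303 and 103 CPM (-1.56), and the low-affinity IgE receptor Fcer2a had 534 and 277 CPM (-0.94), both lower in aged B cells.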
